A study of Homo sapiens with 5 samples.

Results

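The urokinase receptor gene PLAUR and 8 further genes of plasminogen activation and matrix proteolysis were followed in TOV21G. This is a human cell line of ovarian clear cell carcinoma, used in a study of ARID1A-mutated ovarian cancers. The 9 genes were taken by symbol from a table of 28442 gene rows, and all 9 had a row. They are PLAUR, the urokinase gene PLAU, the tissue plasminogen activator gene PLAT, the inhibitor gene SERPINE2, the protease genes MMP14 and ADAMTS1, and the inhibitor genes TIMP1, TIMP2 and TIMP3. They were chosen by role together with their measured levels in these same libraries, PLAUR and SERPINE2 standing high in ACY1215, so their differences are described without a test.

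One library was sequenced for each of 5 treatments. The cells carried a control hairpin (shControl) or a hairpin against HDAC6, a mainly cytoplasmic deacetylase (shHDAC6), or were given the drug vehicle or the HDAC6 inhibitor ACY1215 or CAY10603. The hairpins came by virus with puromycin selection. The labels list 2 HDAC6 hairpins without saying which was sequenced, and no source used here gives the dose or time of a drug. The labels join shControl and vehicle as the control group and the other 3 libraries as repressed HDAC6, and nothing says that any treatment was repeated in a separate culture.

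Urokinase is a secreted serine protease that converts plasminogen into plasmin, and its receptor, held in the membrane by a lipid anchor, concentrates that activity at the cell surface. Plasmin degrades fibrin and other matrix proteins and can activate matrix metalloproteinases. Serpins block the activators, and the TIMP proteins block the metalloproteinases. In carcinoma the system is known for its part in migration and invasion.

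Total counts lay between 43498805 (vehicle) and 57442767 (shControl). Levels are given as CPM, a count relative to the library total, scaled between libraries by the TMM method, with a 95% interval that covers counting error only. HDAC6 itself stood at 48.0 CPM in shControl and 29.2 in shHDAC6, and at 51.1 in vehicle, 33.2 in ACY1215 and 48.2 in CAY10603. Of 7 clear cell carcinoma markers 6 averaged 5 CPM or more, among them PAX8 (104 to 145 CPM), while NAPSA stayed at or below 0.398 CPM. The 5 epithelial markers summed to 349 to 451 CPM, and 3 of them averaged 5 CPM or more. CDH1 stood at 0.516 to 1.36 CPM and KRT19 at 1.86 to 5.49. EPCAM stood at 59.6 CPM with vehicle, 29.6 with ACY1215 and 65.7 with CAY10603, and at 59.7 with shControl and 39.7 with shHDAC6. The part of EPCAM in the results was not tested. Of 8 leukocyte markers none reached a mean of 5 CPM, and their sum was 2.87 to 6.19 CPM. No endothelial or erythroid marker reached 1 CPM in any library. The fibroblast list summed to 24.9 to 27.0 CPM in shControl, vehicle and shHDAC6, 37.6 in ACY1215 and 36.9 in CAY10603. COL1A2 made up most of that, and DCN and LUM stayed at or below 0.384 CPM. The part of such cells in the results was not tested. In libraries of this kind, fewer cells of a type and less RNA per cell cannot be told apart.

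The promoter of PLAUR is shown because this gene had the largest log2 fold of the 8 genes past the level floor used here, and those of SERPINE2 because it was the other gene at least 2-fold apart in any pair of a treatment and its own control. The RefSeq promoter table held 6 of the 9 genes, and PLAT, TIMP2 and ADAMTS1 were not in it. The 250 bases before each listed start are printed on the gene's strand (build GRCh38.p14, all on the minus strand). Capitals mark TGANTCA, the consensus for AP-1 factors, in PLAUR. In SERPINE2 they mark CCAAT at the first start and GGGCGG, the GC box, at the second, each on either strand.
PLAUR, chr19:43670170-43670419: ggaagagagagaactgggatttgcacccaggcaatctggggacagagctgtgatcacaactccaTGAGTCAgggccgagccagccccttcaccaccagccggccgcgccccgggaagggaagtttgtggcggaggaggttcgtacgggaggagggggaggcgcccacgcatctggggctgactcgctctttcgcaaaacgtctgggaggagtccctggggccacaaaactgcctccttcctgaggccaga
SERPINE2, first start, chr2:224031479-224031728: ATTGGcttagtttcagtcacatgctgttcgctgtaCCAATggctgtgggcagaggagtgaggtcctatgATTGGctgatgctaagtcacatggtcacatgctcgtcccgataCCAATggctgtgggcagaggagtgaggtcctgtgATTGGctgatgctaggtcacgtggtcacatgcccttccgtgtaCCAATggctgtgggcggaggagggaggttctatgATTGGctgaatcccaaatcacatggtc
SERPINE2, second start, chr2:224038641-224038890: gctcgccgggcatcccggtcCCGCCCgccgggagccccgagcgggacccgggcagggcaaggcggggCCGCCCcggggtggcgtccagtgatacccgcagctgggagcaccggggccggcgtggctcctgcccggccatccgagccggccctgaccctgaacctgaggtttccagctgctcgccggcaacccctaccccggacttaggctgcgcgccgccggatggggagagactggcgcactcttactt

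The PLAUR window held 1 AP-1 match, TGAGTCA, beginning 186 bases before the start. TGANTCA reads the same on both strands, and 6.6% of the 35116 windows of 250 bases in the table held it. The windows of PLAU, SERPINE2, MMP14, TIMP1 and TIMP3 did not hold it. The first SERPINE2 window held 7 CCAAT matches, 3 as CCAAT and 4 as ATTGG on the printed strand. The 3 CCAAT matches lie 77 bases apart, which shows a repeated unit, and the first 77-base unit is 89.6% identical to the second. CCAAT occurred in 32.0% of the windows, and 7 or more matches in 7 of 35116. The motif and the cut of 7 matches were set with this window in view, so nothing is read from that count. The second SERPINE2 window held 2 GC boxes, the first 1, the second PLAU window 3, the MMP14 window 1, the TIMP1 window 2 and the TIMP3 window 5, against 42.6% of windows with at least 1. The cAMP response element TGACGTCA, searched on both strands, was in 1.6% of windows and in none of these. The E-box CACGTG was in 6.3% and in the first SERPINE2 window, where it matched 1 time. These letters describe sequence only, and no binding was measured.

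PLAUR encodes the urokinase receptor and was a low transcript in every library except ACY1215. Its counts were 197 in shControl, 161 in shHDAC6, 171 in vehicle, 228 in CAY10603 and 1102 in ACY1215. These correspond to 3.42 CPM in shControl (interval 2.96 to 3.93), 3.05 in shHDAC6 (2.60 to 3.56), 3.84 in vehicle (3.28 to 4.46), 4.72 in CAY10603 (4.13 to 5.37) and 21.1 in ACY1215 (19.9 to 22.4). The ACY1215 library lies far above the other 4, whose intervals overlap in part. Against vehicle the log2 fold of ACY1215 was 2.45 (counting interval 2.23 to 2.70), and against shControl it was 2.61 (2.41 to 2.85). A floor of 5 CPM on the average of the 5 libraries left 10741 genes. Of these, 0.0372% lay as far from vehicle or farther in ACY1215, PLAUR included. Since PLAUR was chosen with its high ACY1215 level in view, nothing is read from that share. PLAUR passed that floor only through ACY1215, since its mean without that library was 3.76 CPM. For CAY10603 against vehicle the log2 fold was 0.30, with an interval of 0.01 to 0.59. For shHDAC6 against shControl it was -0.16, with an interval of -0.47 to 0.14 that holds no change. For shControl against vehicle it was also -0.16 (-0.47 to 0.14). The authors' FPKM, which also divides by transcript length, gave the same order at the top, with 15.37 in ACY1215 against 2.94 in vehicle and 3.73 in CAY10603.

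**Figure D1:**
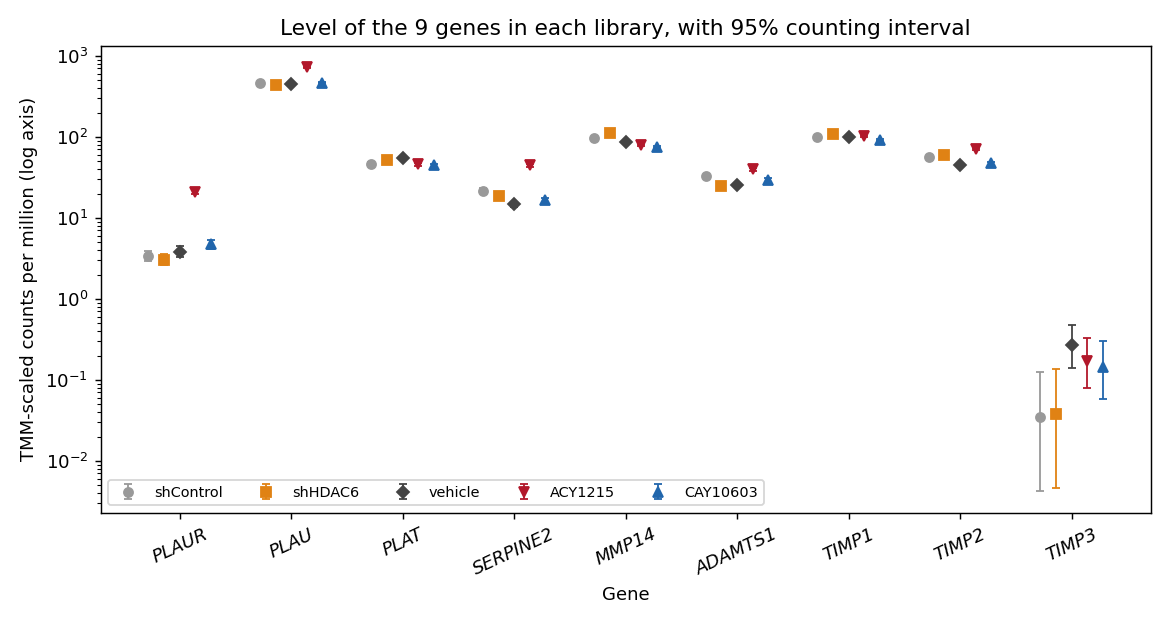
TMM-scaled CPM (log axis) of the 9 genes in the 5 libraries, 1 point per library with its 95% counting interval. ACY1215 lies above the other libraries for PLAUR (21.1), PLAU (720), SERPINE2 (44.6), ADAMTS1 (40.1) and TIMP2 (70.3), and TIMP3 lies below 0.3 in all 5.

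Of the plasminogen activators, PLAU was the most abundant of the 9 genes. Per length, it took 47.3% of the summed FPKM of the 9 genes in shHDAC6 and 58.7% in ACY1215. It stood at 455 CPM with vehicle, 720 with ACY1215 and 466 with CAY10603, and at 462 with shControl and 436 with shHDAC6. The 4 libraries without ACY1215 lie between 436 and 466 CPM, and ACY1215 lies above them. The log2 fold of ACY1215 against vehicle was 0.66 (0.64 to 0.69), and 10.9% of the 10741 genes were as far from vehicle or farther. For CAY10603 it was 0.03, which turned to -0.01 without TMM scaling and -0.10 on FPKM. C10orf55, annotated on the opposite strand over PLAU, had 38 to 52 counts per library against 20291 or more for PLAU. The strand setting of the counting is not given, so how reads from the overlap were divided between the pair is not known.

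PLAT, the tissue-type activator best known from clot dissolution, had a different pattern. It stood at 54.2 CPM with vehicle, 46 with ACY1215 and 44.8 with CAY10603, and at 46.9 with shControl and 51.4 with shHDAC6. Vehicle was the highest library and the drug libraries were the lowest. The log2 folds were -0.24 (-0.32 to -0.15) for ACY1215 and -0.27 (-0.36 to -0.19) for CAY10603. shControl lay below vehicle by nearly as much (-0.21, -0.29 to -0.13). With shControl as the control the folds were -0.03 and -0.07, and both intervals then held no change. The FPKM ratio of PLAU to PLAT was 22.6 in ACY1215 and 11.9 to 14.9 in the other libraries.

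SERPINE2 encodes protease nexin-1, a serpin that inhibits thrombin and the plasminogen activators. It stood at 21.8 CPM in shControl (20.7 to 23.1), 18.8 in shHDAC6 (17.7 to 20.0), 14.7 in vehicle (13.5 to 15.8), 44.6 in ACY1215 (42.8 to 46.4) and 16.6 in CAY10603 (15.5 to 17.8). ACY1215 was the highest library and vehicle the lowest. The log2 fold of ACY1215 was 1.60 (1.48 to 1.73) against vehicle and 1.03 (0.93 to 1.13) against shControl, a ratio of 3.04 against vehicle and 2.04 against shControl. The controls differed from each other by 0.58 (0.44 to 0.71, shControl minus vehicle). In CAY10603 the fold was 0.18 against vehicle and -0.39 against shControl, so its direction depended on the control. In shHDAC6 it was -0.21 against shControl and 0.36 against vehicle.

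SERPINB2, a further inhibitor gene of the activators, had 3 counts in all 5 libraries together. The summed FPKM of PLAU and PLAT was 349 in ACY1215 and 225 to 257 elsewhere. The ratio of PLAU to its receptor PLAUR was 80.9 to 89.3 in shControl, vehicle and shHDAC6, 59.6 in CAY10603 and 21.7 in ACY1215. Transcript ratios are not ratios of protein.

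MMP14 encodes a membrane-anchored collagenase that activates pro-MMP2 together with TIMP2. It stood at 86.8 CPM with vehicle, 79.0 with ACY1215 and 75.6 with CAY10603, and at 96.4 with shControl and 112 with shHDAC6. The shHDAC6 library was the highest and the drug libraries the lowest. The log2 folds were 0.21 (0.16 to 0.26) for shHDAC6, -0.14 (-0.20 to -0.07) for ACY1215 and -0.20 (-0.27 to -0.13) for CAY10603, and each kept its sign against the other control. Of the 10741 genes, 42.2% lay as far from shControl or farther in shHDAC6. MMP2 had at most 5 counts in any library.

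ADAMTS1 encodes a secreted protease that cleaves matrix proteoglycans. It stood at 25.4 CPM with vehicle, 40.1 with ACY1215 and 29.4 with CAY10603, and at 32.7 with shControl and 25.1 with shHDAC6. It was highest in ACY1215, and shHDAC6 and vehicle shared the lowest level. The log2 folds were -0.38 (-0.48 to -0.28) for shHDAC6, 0.66 (0.55 to 0.77) for ACY1215 and 0.21 (0.10 to 0.32) for CAY10603. The controls differed by 0.36 (0.26 to 0.47). Against vehicle the shHDAC6 fold was -0.02, and against shControl the folds of ACY1215 and CAY10603 were 0.30 and -0.15.

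The metalloproteinase inhibitors differed from each other. TIMP1, the most abundant of the 3 at a mean of 136 FPKM, stood at 100 CPM with vehicle, 102 with ACY1215 and 91.3 with CAY10603, and at 98.9 with shControl and 109 with shHDAC6. Against their own controls the log2 fold was 0.14 for shHDAC6 and -0.14 for CAY10603, and its ratio of highest to lowest library, 1.2, was the smallest of the 9, next to 1.21 for PLAT. The ACY1215 fold was 0.02, and it turned to -0.08 without TMM scaling and -0.07 on FPKM. TIMP2, which also takes part in pro-MMP2 activation, stood at 45.2 CPM with vehicle, 70.3 with ACY1215 and 47.1 with CAY10603, and at 56.8 with shControl and 59.2 with shHDAC6. ACY1215 was the highest library and vehicle the lowest. The TIMP2 fold of ACY1215 was 0.64 (0.56 to 0.72) against vehicle and 0.31 against shControl, which itself lay 0.33 above vehicle. TIMP3, which stays bound to the matrix, had 12 counts with vehicle, 9 with ACY1215 and 7 with CAY10603, and 2 each with shControl and shHDAC6, at most 0.269 CPM. Its ratio of ACY1215 to vehicle, 0.641, has a counting interval of 0.239 to 1.66, and that of shControl to vehicle, 0.129, one of 0.0140 to 0.579. The FPKM ratio of TIMP1 to TIMP2 was 6.84 in ACY1215 and 10.5 in vehicle, with 8.28, 8.43 and 9.08 in shControl, shHDAC6 and CAY10603.

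Per length, the mean FPKM over the 5 libraries ordered the genes as PLAU (245), TIMP1 (136), MMP14 (26.8), PLAT (16.3), TIMP2 (16.0), SERPINE2 (11.4), ADAMTS1 (6.79), PLAUR (5.39) and TIMP3 (0.0260). The ranges of PLAU (207 to 334), TIMP1 (123 to 146) and MMP14 (22.3 to 33.6) over the libraries did not overlap each other or those of the genes below. Those of PLAT, TIMP2 and SERPINE2 overlapped, and that of PLAUR (2.32 to 15.4) spanned that of ADAMTS1 (5.69 to 8.58) and reached into those of PLAT, TIMP2 and SERPINE2.

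Set beside all genes, ACY1215 against vehicle was the pair with the most distance. Of the 8 genes past the floor (all but TIMP3) 2, PLAUR and SERPINE2, were at least 2-fold higher, while 4.70% of the 10741 genes were at least 2-fold apart in either direction and 1.67% were higher. Since the genes were chosen with this pair in view, nothing is read from that count. The median log2 fold of the 8 was 0.65, and that of all genes -0.00. For shHDAC6 against shControl 0 of 8 were 2-fold apart (0.689% of all genes), 4 were higher and 4 lower (50.7% of all genes higher), and the median was -0.01. For CAY10603 against vehicle 0 of 8 were 2-fold apart (0.270% of all genes), with a median of 0.05. The 2 drug pairs share their vehicle library. The 2 controls differed by 2-fold for 0 of 8 and 1.42% of all genes, with a median of 0.09. With the controls exchanged the genes past 2-fold numbered 0 of 8 for shHDAC6 against vehicle (1.19% of all genes), 2 of 8 for ACY1215 against shControl (3.01% in either direction, 1.82% higher) and 0 of 8 for CAY10603 against shControl (1.12%). The medians of the 8 then became 0.05, 0.30 and -0.13. For 5 of the 8 genes shHDAC6 lay on one side of shControl and both drugs on the other side of vehicle, each beyond counting error, as did 19.4% of all genes past the floor.

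**Figure D2:**
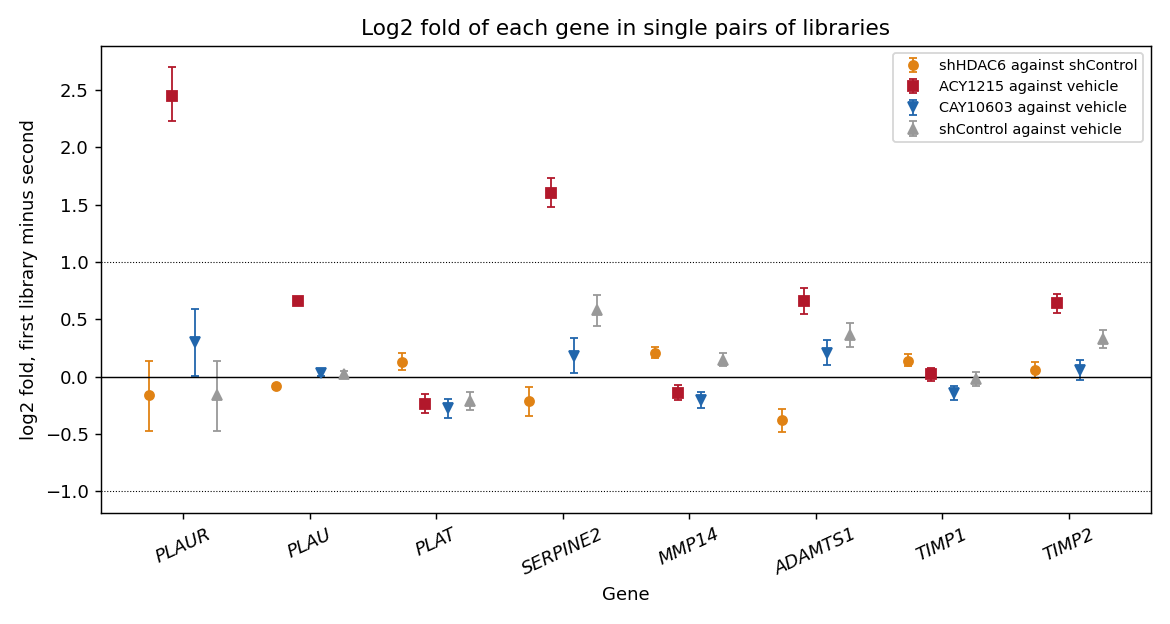
Log2 fold (first library minus second) of the 8 genes past the floor in 4 pairs of libraries, with 95% counting intervals and dotted lines at 2-fold. Only PLAUR (2.45) and SERPINE2 (1.60) in ACY1215 against vehicle lie past a dotted line, and the grey triangles give the distance between the controls.

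The inhibitors ACY1215 and CAY10603 were set side by side, though their doses and times are not known and each has 1 library. All 8 genes were lower in CAY10603 than in ACY1215, where 50.0% of all genes were higher. Of the 8, 2 were at least 2-fold lower, against 3.28% of all genes in either direction and 1.03% lower. Since PLAUR and SERPINE2 were chosen with their high ACY1215 levels in view, nothing is read from these counts. The log2 folds were -2.15 (-2.38 to -1.96) for PLAUR, -1.42 (-1.54 to -1.31) for SERPINE2, -0.63 for PLAU, -0.58 for TIMP2 and -0.45 for ADAMTS1. For PLAT (-0.04, -0.12 to 0.05) the interval held no change, and MMP14 (-0.06) and TIMP1 (-0.16) lay close to it. PLAUR in CAY10603 remained nearer to vehicle than to ACY1215. These differences have no replicate check.

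Over all 3 interventions against both controls, with experiment type in the fit, 0 of 13449 genes (0%) passed edgeR's quasi-likelihood test at an adjusted p of 0.05, and 100 had an unadjusted p below it. DESeq2 called 0 and limma-voom 0, with 112 and 122 genes at an unadjusted p below 0.05. The pooled log2 fold of PLAUR was 0.91 with a standard error of 0.75. It was 0.06 without ACY1215. With experiment type in the fit, leaving out vehicle reduces the fold to the shHDAC6 and shControl pair alone, here -0.16. Leaving out shControl or shHDAC6 leaves the drug libraries against vehicle alone, here 1.75 both times. These values therefore repeat single comparisons and do not check the pooled fold. Without experiment type in the fit the pooled fold of PLAUR was 1.41. SERPINE2 had 0.50 (standard error 0.48), with -0.02 without ACY1215, -0.21 without vehicle and 1.06 without shControl or without shHDAC6. The other tested genes lay between -0.09 for PLAT (standard error 0.15) and 0.24 for TIMP2 (standard error 0.21). Leaving out 1 library turned the sign of some of these, with ranges of -0.38 to 0.45 for ADAMTS1, -0.26 to 0.13 for PLAT, -0.17 to 0.21 for MMP14, -0.08 to 0.38 for PLAU and -0.06 to 0.14 for TIMP1. The ends of each range are shHDAC6 against shControl alone and the drugs against vehicle alone. A turned sign thus shows only that these comparisons differ. Of 76 genes of the pathway lists that were tested, 0 passed, the 9 genes included where tested.

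The wider pathway was described with 9 lists of 135 genes, of which 134 had a row. Apart from the 9 genes, 51 of them averaged 5 CPM or more. In ACY1215 against vehicle 3 of the 51 (5.88%) were at least 2-fold higher and 0 lower, with a median log2 fold of 0.37. Over all genes past the floor 1.67% were higher and 4.70% were apart in either direction, with a median of -0.00. In shHDAC6 and CAY10603 against their own controls 0 of 51 were 2-fold apart (0.689% and 0.270% of all genes), with medians of -0.01 and 0.06. The median of the 51 between the controls was 0.12.

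The 3 genes past 2-fold were S100A10, ITGA6 and ITGA3. S100A10, which forms a plasminogen-binding complex with annexin A2, stood at 113 CPM with vehicle, 274 with ACY1215 and 156 with CAY10603, and at 206 with shControl and 143 with shHDAC6. Its log2 fold of 1.28 in ACY1215 has to be read beside the 0.87 by which shControl lay above vehicle. ITGA6, the integrin alpha-6 chain of laminin receptors, stood at 106 CPM with vehicle, 233 with ACY1215 and 120 with CAY10603, and at 153 with shControl and 114 with shHDAC6 (log2 fold 1.14 in ACY1215, 0.54 for shControl against vehicle). ITGA3, the alpha-3 chain, stood at 179 CPM with vehicle, 372 with ACY1215 and 195 with CAY10603, and at 232 with shControl and 283 with shHDAC6 (log2 fold 1.06 in ACY1215, 0.37 for shControl against vehicle). For all 3 genes ACY1215 was the highest library.

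Among the plasminogen list's 8 other genes past the floor, 5 were higher and 3 lower in ACY1215 than in vehicle, where 50.0% of all genes were higher. ANXA2, annexin A2, was the most abundant, at 740 CPM with vehicle, 1112 with ACY1215 and 822 with CAY10603, and at 1117 with shControl and 1109 with shHDAC6. Its log2 fold of 0.59 in ACY1215 equalled the distance of shControl from vehicle, 0.59. Plasminogen itself, PLG, had at most 10 counts in a library. All 10 urokinase receptor partners past the floor (integrins, EGFR, IGF2R and the clearance receptor LRP1) were higher in ACY1215 than in vehicle, with a median of 0.71, where 50.0% of all genes were higher. All 10 were also higher in shControl than in vehicle (median 0.33, 52.3% of all genes higher). In CAY10603 against vehicle 8 of 10 were higher (median 0.21, 51.5% of all genes). In shHDAC6 against shControl 2 of 10 were higher (median -0.08, 50.7% of all genes). ITGB1, the integrin beta-1 chain, was the most abundant, at 5037 CPM in vehicle and 7563 in ACY1215. Vitronectin, VTN, a matrix ligand of the receptor, had at most 6 counts.

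Of the receptor's own protein family, built from Ly6 and uPAR domains, 3 further genes passed the floor, and none reached 2-fold. LY6E, the most abundant, had a log2 fold of 0.87 in ACY1215 and stood at 17.4 CPM in vehicle and 31.8 in ACY1215. CD59, a complement inhibitor, had 0.29 and LYPD6 0.53. Among the 5 other matrix metalloproteinases past the floor none was 2-fold apart in any of these pairs. MMP7, matrilysin, was the most abundant at a mean of 213 FPKM, and MMP14 made up 8.28% to 11.3% of the summed FPKM of the metalloproteinase list. RECK, a membrane-anchored inhibitor of metalloproteinases, had 0.48 in ACY1215.

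Among the genes of the remaining lists that averaged 5 CPM or more, none was 2-fold apart in shHDAC6, ACY1215 or CAY10603 against its own control. ADAMTS9 was the most abundant ADAMTS gene (log2 fold -0.05 in ACY1215). In ACY1215 against vehicle 50.0% of all genes past the floor were higher. All 4 ADAM genes past the floor were higher there (median 0.36), with ADAM9, the most abundant, at 0.42. Of 12 cathepsin and cystatin genes 7 were higher and 5 lower (median 0.04), near the share of all genes. CTSC, the most abundant of them, had 0.07. Of 4 subunits of AP-1 past the floor 2 were higher and 2 lower. FOSL2, the most abundant, had -0.02, JUN 0.66 and JUND -0.55. JUN lay 0.60 higher in shControl than in vehicle. AP-1 activity was not measured.

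**Figure D3:**
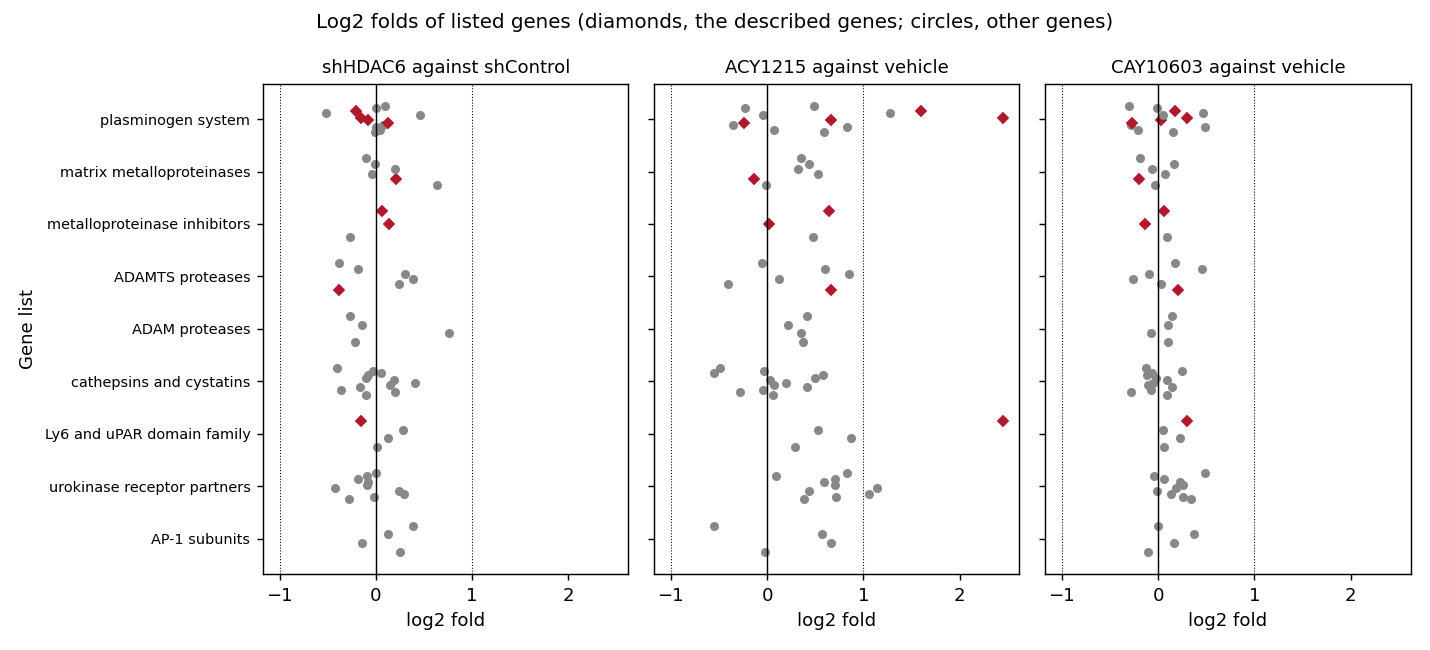
Log2 folds in 3 pairs of libraries for the genes of 9 lists that averaged 5 CPM or more, 1 point per gene and list (PLAUR and LRP1 stand in 2 lists), with dotted lines at 2-fold. Past 2-fold in ACY1215 are PLAUR and SERPINE2 (diamonds) and S100A10, ITGA6 and ITGA3 (circles), and none is past it in shHDAC6 or CAY10603.

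The genes with the profile most like that of PLAUR were taken by the smallest distance between log2 CPM values over the 5 libraries, each gene centred on its own mean, among 10740 other genes past the floor. They were EPHB2, a receptor kinase for ephrins (distance 0.25), ZNF516, a zinc finger protein (0.39), CLGN, a chaperone of the endoplasmic reticulum (0.53), SRPX (0.60), PPP2R2C, a regulatory subunit of phosphatase 2A (0.63), TMEM170B (0.65), ENPP4 (0.68) and AREG, the EGF receptor ligand amphiregulin (0.70). EPHB2 stood at 5.61 CPM with vehicle, 29.3 with ACY1215 and 7.08 with CAY10603, and at 5.87 with shControl and 5.03 with shHDAC6. AREG stood at 7.85 CPM with vehicle, 34.5 with ACY1215 and 8.36 with CAY10603, and at 8.87 with shControl and 8.90 with shHDAC6. Since the measure picks genes that share the ACY1215 peak of PLAUR, that peak is no finding. Of the 8, ZNF516, CLGN, SRPX and PPP2R2C averaged under 5 CPM without ACY1215 and passed the floor only through it. The distances of SERPINE2 and PLAU from PLAUR were 1.31 and 1.69, and that of MMP14 was 2.58. A ranking by Pearson correlation over the 5 libraries, which ignores the size of a difference, shared 0 of the 8 genes. By that measure 35 genes had a coefficient of 0.99 or more. The coefficient with PLAUR was 0.89 for SERPINE2, 0.99 for PLAU and -0.59 for MMP14. The order of SERPINE2 and PLAU thus depended on the measure.

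**Figure D4:**
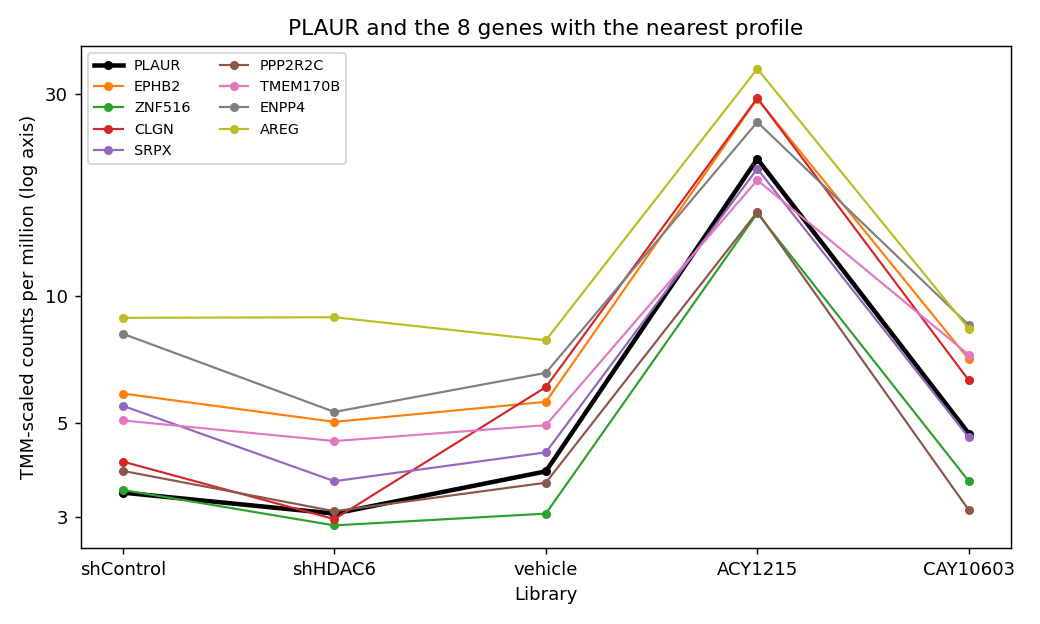
TMM-scaled CPM (log axis) of PLAUR (black) and the 8 genes with the nearest profile in the 5 libraries, 1 point per library. All 9 profiles peak in ACY1215, where PLAUR reaches 21.1 and AREG 34.5.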

How the data were processed

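Trizol RNA went into stranded libraries, per the labels' protocols. For each gene the authors deposited an expected count, rounded to a whole number, and an FPKM value, as the column names show. RSEM 1.2.3, edgeR and hg19 are named in the submitters' processing notes without a role. No source used here names the aligner or the strand setting. The DMSO columns were read as vehicle, the only vehicle sample. Counts were used as deposited.

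The 13449 genes that reached 1 CPM in 2 or more libraries were fitted with edgeR 4.0.16 in R 4.3.3 (TMM, robust quasi-likelihood, experiment type as covariate, 2 residual degrees of freedom, Benjamini-Hochberg adjustment at 0.05). The fit was also run on simulated data whose spread was set below that estimated from these libraries, so that run does not show power here. DESeq2 1.42.0 and limma 3.58.1 were alternatives. P-values measure only the spread between these libraries. Different treatments stand in as replicates in this fit, so differences between the treatments enter as error. Single pairs carry no test: each log2 fold compares CPM after TMM scaling, a prior count of 2 added, over the 10741 genes that averaged 5 CPM or more. Intervals at 95% are exact Poisson for levels and exact binomial for ratios. FPKM folds used a pseudocount of 0.1. Lists were described by counts at 2-fold and medians.

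The 9 genes and the lists were chosen with earlier results of these data known. Named by rule were the 9 genes, HDAC6, the 8 genes nearest to PLAUR, list genes past 2-fold, and the most abundant gene of each list. Promoter sequences are RefSeq's (GRCh38.p14) and the motifs were chosen with the sequences in view. No hg19 annotation was used, so the coordinates given are those of the promoter windows in GRCh38.p14. Other listed genes, such as SERPINB2, PLG, VTN, MMP2, CD59, LYPD6, JUN and JUND, were named after their values were seen. Some listed genes are not reported here.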

Additional observations from a re-analysis of the deposited data

Results flagged for a closer look

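For 5 of the 9 genes the knockdown library and both drug libraries lay on opposite sides of their own controls, each by more than counting error. The same held for 19.4% of the 10741 genes past the floor, and counting intervals are narrow at these depths. The difference between knockdown and drugs was not tested, since the knockdown has 1 library. The value given is the log2 fold of shHDAC6 against shControl minus the mean log2 fold of the drugs against vehicle. SERPINE2 had -1.11, from -0.21, 1.60 and 0.18 for shHDAC6, ACY1215 and CAY10603. ADAMTS1 had -0.82, from -0.38, 0.66 and 0.21. PLAU had -0.43, from -0.08, 0.66 and 0.03. PLAT had 0.39, from 0.13, -0.24 and -0.27, and MMP14 had 0.38, from 0.21, -0.14 and -0.20. With vehicle as the control for shHDAC6 the sign of the shHDAC6 fold turned for SERPINE2 (0.36) and PLAT (-0.07). With shControl as the control for CAY10603 its fold turned for SERPINE2 (-0.39) and ADAMTS1 (-0.15), and the CAY10603 fold of PLAU turned to -0.01 without TMM scaling.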

How the results depend on the processing

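Of the 8 genes past the floor, the number at least 2-fold apart was 0, 2, 0 and 2 in the pairs that follow. These were shHDAC6 against shControl, ACY1215 against vehicle, CAY10603 against vehicle and CAY10603 against ACY1215. The number stayed the same with RLE scaling, without TMM, with a prior count of 0.5 and on FPKM. For the first 3 pairs it also stayed the same with the other control. With the other control TIMP3, which is under the floor and not counted here, passed 2-fold in those 3 pairs, on 2 to 12 counts. Of 36 folds of the 9 genes, 8 moved beyond their counting interval without TMM 8 on FPKM and 17 of 27 with the other control. Scaling by total count shifted the median of all genes by -0.10 for ACY1215 against vehicle. Over all genes the counts at 2-fold were 74, 505 and 29 for the first 3 pairs. They became 264, 965 and 94 with a floor of 1 CPM, and 128, 323 and 120 with the other control. The cause was not tested. Without ACY1215 the pooled edgeR count of 0 genes became 4 (BC017214, EIF3CL, HIST2H3C and LOC100505876, named after their values were seen). Without CAY10603 it stayed at 0. Leaving out vehicle, shControl or shHDAC6 leaves a single comparison, so only the fold is given there. The pooled fold of PLAUR was -0.16 without vehicle and 1.75 without shControl or without shHDAC6. No pairing beyond experiment type was possible, since each treatment has 1 library. Experiment type, which sets shHDAC6 with shControl and the drugs with vehicle, is in the pooled fit, and without it the PLAUR fold was 1.41 and 0 genes passed. With 1 library a treatment, depth limits PLAUR (161 to 228 counts outside ACY1215) and TIMP3 (2 to 12 counts).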

Other observations

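Of the listed genes under the floor of 5 CPM, some were highest in ACY1215 and others lowest, and those named here were picked after their values were seen. Among the lowest there, MMP19 had 14 counts with ACY1215 and 49 with vehicle, CTSS 134 and 211, and LY6K 106 and 162. The genes that follow were highest in ACY1215. SERPINI1, neuroserpin, an inhibitor of tissue plasminogen activator, had 68 counts with vehicle, 342 with ACY1215 and 117 with CAY10603, and 107 with shControl and 112 with shHDAC6, a ratio of ACY1215 to vehicle of 4.30 (counting interval 3.31 to 5.67). MMP1, interstitial collagenase, had 1, 64, 13, 2 and 3 counts in that order, and its ratio of 54.7 in ACY1215 has an interval of 9.48 to 2195 because vehicle has 1 count. ADAMTS6 had 82 counts in ACY1215 and 16 in vehicle (ratio 4.38, interval 2.54 to 8.03), and ADAM33 had 99 and 26 (ratio 3.26, interval 2.10 to 5.23).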
